A study of Rattus norvegicus with 26 samples.

Results

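The distance that remained between treated and uninjured cord was measured in 8 of the 26 RNA-seq libraries of a rat spinal cord injury (SCI) study, the 4 +MSC-4w and the 4 Intact libraries. Libraries were taken by their labels, and all genes with enough counts to be tested were kept, 17990 of the 32883 in the count table. All rats were wild-type female Sprague-Dawley adults of 250 g, and the labels give postnatal day 70 as the age in both groups. The same age is given for every group of the series, although the groups were collected at different times after injury. The age at collection is therefore unclear. Any difference in age between Intact and +MSC-4w cannot be told apart from injury and treatment. In +MSC-4w rats the cord had been compressed at T10 by an aneurysm clip of 60 g force for 1 min. Mesenchymal stem cells of human umbilical cord (hUC-MSCs) were given intrathecally 7 days later, and the lesion was collected 4 weeks post-transplantation (wpt) in a 5 mm piece of cord. Intact rats are labelled untreated and are described in the study as intact or sham rats. According to the methods the rats of the study received cyclosporin A daily, and whether the Intact rats did is not stated in the sources used here. The +PBS-4w group, 4 libraries of rats with the same injury that received vehicle (PBS), is given beside the comparison. Both comparisons against Intact share the 4 control libraries, so their values are set side by side only.

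A clip injury of the cord kills neurons and oligodendrocytes, breaks the myelin around axons and draws in monocytes that become macrophages. Resident microglia turn phagocytic, astrocytes around the lesion enlarge and fill with intermediate filaments, and fibroblasts and Schwann cells enter from the meninges and nerve roots. Phagocytes that have eaten myelin must store, export or recycle its cholesterol, whereas oligodendrocytes that build myelin make cholesterol themselves. In bulk tissue, fewer cells of a type and less RNA per cell cannot be told apart, and this holds for every gene below.

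The 4 Intact libraries held 19496602 to 26813098 counts and the 4 +MSC-4w libraries 23353052 to 43468509, with medians of 22923781 and 26259375. The difference between the group means of the log2 totals was 0.34, and an exact two-sided permutation test of the 4 against 4 libraries gave p = 0.143 (the smallest possible p was 0.0286). The study's methods speak of biological replicates for each condition and of repeats for these groups of 4, without tying each library to a rat. The p-values therefore measure the spread between libraries. For the edgeR p-values below, that spread was estimated over all 26 libraries in 8 groups, not over these 8 libraries alone, unless another fit is named. The tissue label held in both groups. The 14 neuron markers summed to 13610 to 16140 CPM (the usual depth-scaled count, with each library's total adjusted by TMM, edgeR's correction for composition) in Intact and 8244 to 10080 in +MSC-4w, and the 8 oligodendrocyte markers to 50680 to 57470 and 18660 to 28620. The 6 macrophage markers summed to 47.6 to 102 CPM in Intact and 2801 to 3687 in +MSC-4w. Some libraries stood apart. Intact replicate 1 held little Schwann cell and fibroblast RNA (the mean log2 CPM of 8 Schwann cell myelin genes ran from 1.198 in this library to 5.849 among the Intact libraries), and +MSC-4w replicate 1 had, within its group, the highest levels of the vesicle release, potassium and calcium channel lists and the lowest of the collagen, interferon and MHC class II lists. Intact replicate 4 held muscle RNA (Acta1, the skeletal muscle actin, chosen after its values were seen, had 6.71, 7.19, 4.21 and 160.0 CPM), and +MSC-4w replicate 2 held RNA of sensory neurons (Scn10a, a sodium channel of dorsal root ganglion neurons, also chosen likewise, had 0.0398, 6.08, 0.143 and 0.129 CPM). In +PBS-4w, replicate 1 held more neuronal RNA than the rest of its group, with neuron markers that summed to 8920 CPM against 2421 to 3344 in the other 3 libraries, which is within the +MSC-4w range. Replicate 1 had the lowest collagen mean and the highest neuron marker mean of its group in each of Intact, +MSC-4w and +PBS-4w. The part of these differences in the results below was not tested, except where values without a library are given.

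**Figure D1:**
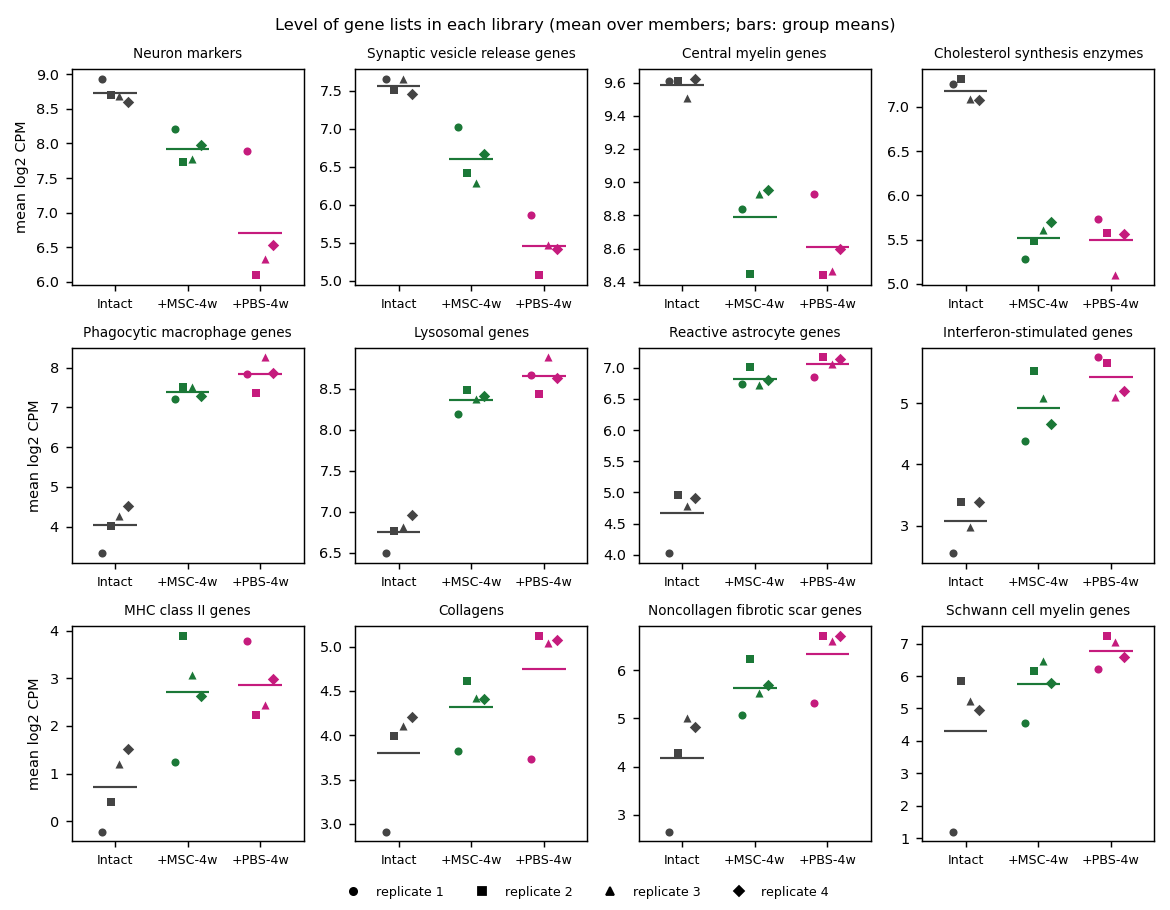
Level of 12 gene lists in each library, as the mean log2 CPM over the members of the list (vertical axes), in Intact, +MSC-4w and +PBS-4w; symbols mark the replicate number and bars the group mean. The cholesterol synthesis enzymes lay between 7.08 and 7.31 in Intact and between 5.29 and 5.70 in +MSC-4w, and the circles of replicate 1 lie apart from their group for the collagens, where Intact replicate 1 was at 2.91.

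More genes stood above the Intact level than below it, and by more. A gene was called when its log2 fold change exceeded 1 in size and its adjusted p was under 0.01, from the quasi-likelihood test of edgeR and the Benjamini-Hochberg method. By this rule 1305 genes were higher in +MSC-4w (7.25% of the 17990 tested) and 275 were lower (1.53%), 8.78% in all. The higher genes had a median absolute log2 fold change of 1.77, with 518 changed over 4-fold and 75 over 16-fold. The lower genes had a median of 1.22, with 19 changed over 4-fold and 1 over 16-fold. The median over all tested genes was -0.00. All 4 libraries of one group lay beyond all 4 of the other in 1217 of the higher and 272 of the lower genes. Over all tested genes this was so for 3298 on the higher side (18.3%) and 3663 on the lower side (20.4%), most of which were not called. The same rule gave 2395 higher (13.3%) and 1923 lower (10.7%) genes in +PBS-4w against Intact, 24.0% in all.

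The count of lower genes depended on single libraries. It was 424 without +MSC-4w replicate 1, 127 without +MSC-4w replicate 2, 137 without +MSC-4w replicate 3, 158 without Intact replicate 1 and 177 without Intact replicate 3. The count of higher genes stayed between 1055 and 1443 when any 1 of the 8 libraries was left out. DESeq2 gave 1524 higher and 460 lower genes on all libraries and 1433 and 514 on the 8 libraries alone.

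**Figure D2:**
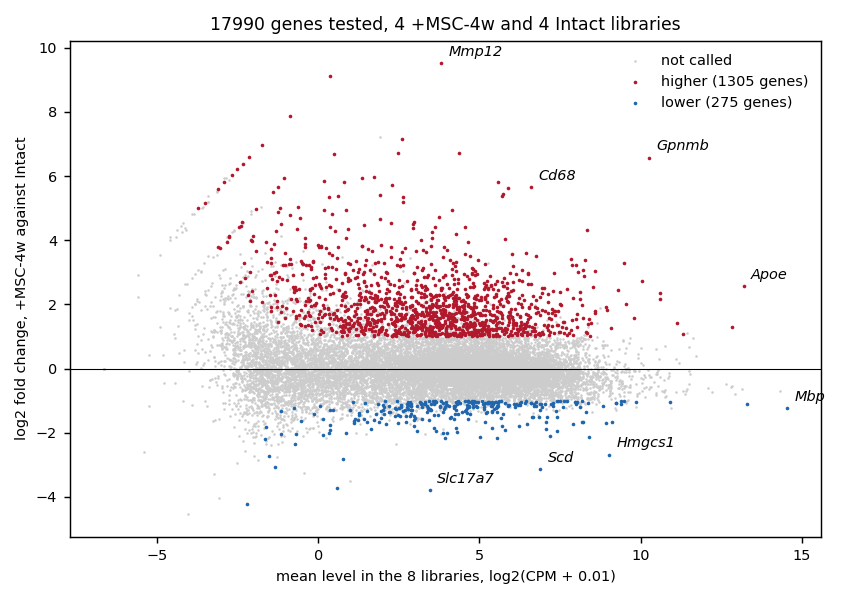
Log2 fold change between +MSC-4w and Intact (vertical axis) against the mean level in the 8 libraries (horizontal axis, log2(CPM + 0.01)) for the 17990 genes tested, with called genes colored. The 1305 higher genes reach further from 0 than the 275 lower genes, and 147 called genes had a mean level under 1 CPM.

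The genes with the smallest adjusted p included genes of phagocytes on the higher side and were mostly genes of sterol synthesis on the lower side. Gpnmb, a glycoprotein of lipid-laden macrophages (ENSRNOG00000008816), had 20.1, 20.8, 24.2 and 36.1 CPM in the 4 Intact libraries and 1896, 2666, 2683 and 2430.5 CPM in the 4 +MSC-4w libraries. The groups lay far apart, with a 95.5-fold difference (log2 fold change 6.58, SE 0.386, adjusted p = 7.99e-10 in edgeR's test). Clec7a, the beta-glucan receptor dectin-1 of myeloid cells, Cd68, a lysosomal protein of macrophages, and Cd8b, a chain of the CD8 coreceptor, rose by 5.63, 5.65 and 6.70 on the log2 scale. Apobec1, the RNA-editing deaminase of apolipoprotein B, rose by 4.43, Grn, the lysosomal protein progranulin, by 2.89 and Tgif1, a transcriptional repressor of TGF-beta signaling, by 1.70. The other 3 of the 10 smallest on this side were Arl11, Otulinl and Unc93b1, which carries Toll-like receptors to endosomes. On the lower side the 10 smallest were Msmo1, Nsdhl, Sqle, Fdft1, Hsd17b7, Mvk and Sc5d, which are sterol synthesis enzymes, with Acat2 and Aacs, which handle acetoacetyl-CoA, and Scd, the stearoyl-CoA desaturase. Slc17a7, the vesicular glutamate transporter VGLUT1, had the largest fall of the called genes with a mean of at least 1 CPM. It had 9.22, 23.6, 22.1 and 27.3 CPM in Intact and 0.318, 4.07, 0.250 and 1.12 in +MSC-4w, 7.00% of the Intact mean (log2 fold change -3.78, SE 0.849, adjusted p = 0.00199). The groups did not overlap, and among the +MSC-4w libraries replicate 2, the one with sensory neuron RNA, held the most.

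At the other end, genes nearly absent from Intact cord were read in all +MSC-4w libraries. Mmp12, the macrophage elastase, had 3 reads in the 4 Intact libraries together and 3780 in the 4 +MSC-4w libraries, a ratio of 909 between depth-scaled reads (95% interval 311 to 4410, counting error only). Its +MSC-4w values were 1.87, 41.5, 48.0 and 21.2 CPM, lowest in replicate 1. Cxcr1, a receptor for CXC chemokines, had 0 reads in Intact and 337 in +MSC-4w, at least 81.0-fold higher against a floor of 3 reads over the Intact group. Fcrl2, an Fc receptor-like protein, lay at 0.164 to 0.601 CPM in Intact and at 10.03 to 68.8 CPM in +MSC-4w (log2 fold change 6.70, adjusted p = 6.31e-07, same edgeR test). Kng1, the precursor of bradykinin, also met the rule. It had 3 reads in Intact and 239 in +MSC-4w (ratio 57.5, 95% interval 19.4 to 281, counting error only). Its +MSC-4w values were 7.48, 0.852, 0.215 and 0.258 CPM, far highest in replicate 1. The call was kept in 6 of 13 alternatives and was lost without +MSC-4w replicate 1 or any single Intact library.

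Described over 45 gene lists that cover the cell types and processes of the injured cord, 609 of 642 listed genes were tested, of which 139 were higher and 46 lower. Beside each count of called members below stand the shares over all genes, 7.25% higher and 1.53% lower. For libraries that did not overlap these shares were 18.3% and 20.4%. A count near such a share is not a result about its list. Lists of phagocytes, complement, chemokines, interferon response and reactive astrocytes had medians above 1, and those of neuronal transmission, central myelin and cholesterol synthesis had medians below 0.

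**Figure D3:**
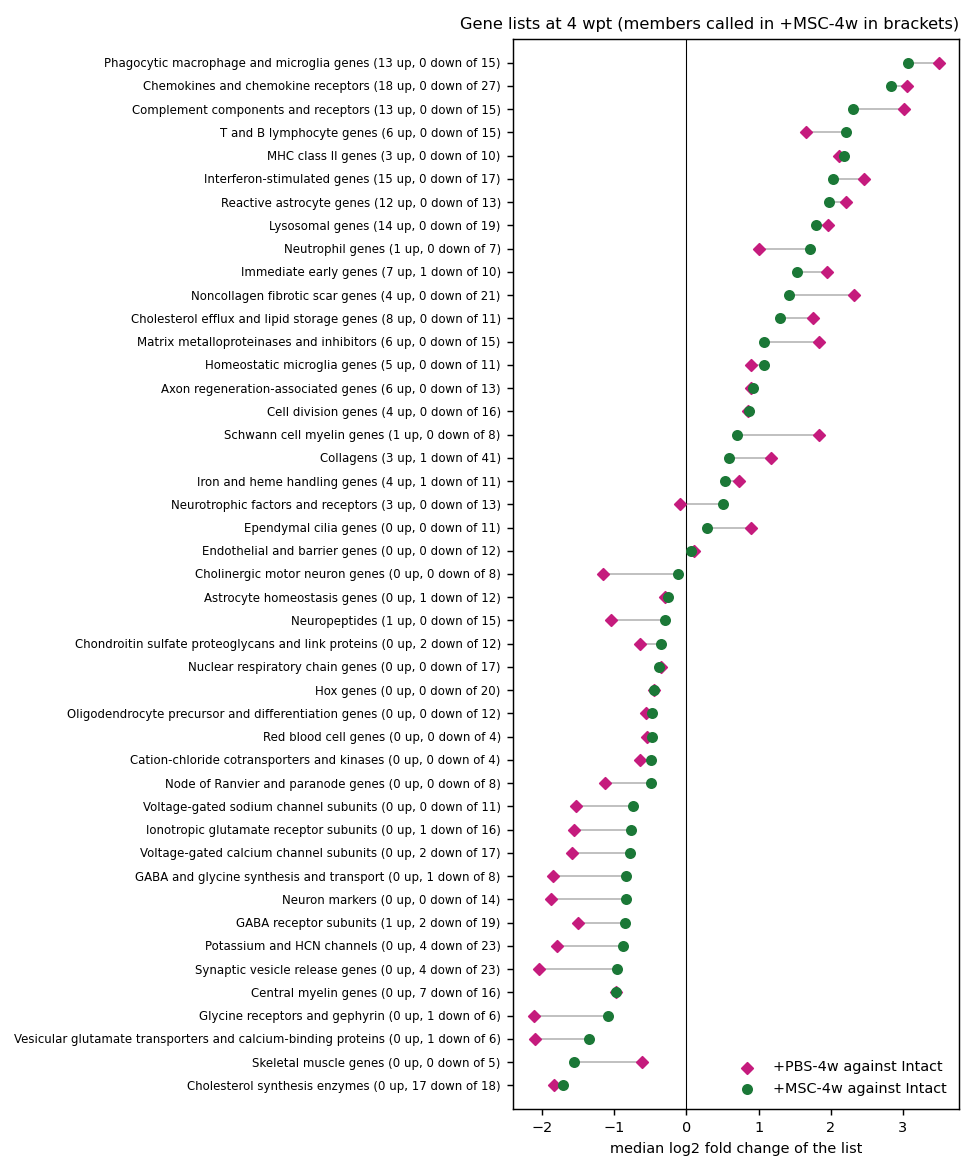
Median log2 fold change against Intact of the members of each gene list (horizontal axis) in +MSC-4w and in +PBS-4w, with the numbers of members called higher and lower in +MSC-4w in brackets. The cholesterol synthesis enzymes had the lowest +MSC-4w median of these lists, -1.71, with a +PBS-4w median of -1.83, and the phagocytic genes the highest, 3.07, with 3.50 in +PBS-4w. The neuronal lists lay nearer to 0 in +MSC-4w than in +PBS-4w.

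General neuron markers were below the Intact level without meeting the rule. All 14 had a log2 fold change below 0 (median -0.84, against -0.00 over all genes), and edgeR called 0 of them. At an unadjusted p under 0.05, 7 of them were lower (19.5% of all genes tested were lower and 22.4% higher at that p), and DESeq2 called 1 on all libraries and 2 on the 8 libraries. Rbfox3, which encodes the nuclear marker NeuN and was chosen after its values were seen, had 76.1, 64.0, 74.6 and 62.8 CPM in Intact and 48.3, 25.1, 26.3 and 36.6 in +MSC-4w, 49.2% of the Intact mean, and the groups did not overlap (log2 fold change -1.03, SE 0.322, adjusted p = 0.0196, above the threshold). The log2 fold change of Rbfox3 was -2.48 in +PBS-4w. Its difference over +PBS-4w, tested directly, was not called (log2 fold change 1.46, adjusted p = 0.0167 in edgeR's test). Tubb3, the neuronal tubulin, had 713, 836, 682 and 608 CPM in Intact and 514, 832, 705 and 622 in +MSC-4w, and its libraries overlapped (log2 fold change -0.09, adjusted p = 0.887). The median of the 14 markers was -1.88 in +PBS-4w, where 12 were called lower, and without +PBS-4w replicate 1 it was -2.52 with 14 called.

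Cholinergic motor neuron genes had a median near that of all genes. Of 8 tested, edgeR called 0 and DESeq2 0, 1 was lower at an unadjusted p under 0.05, and the median was -0.11 (+PBS-4w -1.16, with 3 called lower). Chat, the enzyme that makes acetylcholine, had 30.2, 49.98, 44.4 and 32.9 CPM in Intact, 37.7, 42.7, 44.8 and 37.4 in +MSC-4w and 20.4, 14.7, 14.6 and 18.2 in +PBS-4w. Its Intact and +MSC-4w libraries overlapped (log2 fold change 0.05, SE 0.362, adjusted p = 0.940), whereas all +PBS-4w libraries were below both (log2 fold change against Intact -1.21, adjusted p = 0.00881). Tested directly, the difference of Chat over +PBS-4w was not called (log2 fold change 1.26, adjusted p = 0.0570 in edgeR's test).

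Among genes of the inhibitory transmitters, Slc6a11, the GABA transporter GAT3 of astrocytes, fell to 46.7% of Intact. It had 243, 201, 193 and 180.3 CPM in Intact and 113, 77.7, 69.8 and 121 in +MSC-4w, without overlap (log2 fold change -1.10, SE 0.269, adjusted p = 0.00390). It was the 1 member called of 8 tested (median -0.84), and it was not called without Intact replicate 1, +MSC-4w replicate 2 or +MSC-4w replicate 3 (log2 fold change -1.24 to -0.98 over all alternatives). Gad1 and Gad2, the enzymes that make GABA, chosen after their values were seen, had log2 fold changes of -0.78 and -0.70 (adjusted p = 0.143 and 0.176). In +MSC-4w replicate 1 they stood at the Intact level, with 102, 51.1, 38.1 and 55.1 CPM of Gad2 in the 4 libraries against 104, 96.5, 99.2 and 99.4 in Intact. Of 15 neuropeptide genes, Crh, corticotropin-releasing hormone, was higher, at 0.646 to 0.928 CPM in Intact and 2.33 to 7.84 in +MSC-4w (log2 fold change 2.30, adjusted p = 0.00179), with replicate 1 highest, and without the replicate 1 libraries it was not called.

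GABA receptors, the chloride channels and G protein-coupled receptors through which GABA inhibits neurons, are the family the study turned to. Of 19 subunit genes tested, 2 were called lower and 1 higher, with a median log2 fold change of -0.85 (+PBS-4w -1.50, with 11 called lower). Gabbr2, a subunit of the metabotropic GABA-B receptor, fell to 47.5% (153, 120.1, 124 and 126 CPM in Intact, 84.9, 52.3, 43.5 and 68.0 in +MSC-4w, log2 fold change -1.07, SE 0.249, adjusted p = 0.00259), and was not called without Intact replicate 1, +MSC-4w replicate 2 or +MSC-4w replicate 3. DESeq2 called 4 subunits lower on all libraries and 6 on the 8 libraries. Gabrr2, a rho subunit, was higher at a low level, with 0 to 0.304 CPM in Intact and 0.903 to 1.63 in +MSC-4w (log2 fold change 3.25, adjusted p = 2.93e-05).

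Gabra3 and Gabra5, alpha subunits of GABA-A receptors that the study names, were not called in the main fit, although their libraries did not overlap. Among 17 alternatives Gabra3 was called lower in 5 and Gabra5 in 3. Gabra3 had 50.3, 37.7, 45.5 and 34.2 CPM in Intact, 26.8, 17.1, 13.8 and 22.8 in +MSC-4w and 14.3, 4.94, 7.65 and 9.59 in +PBS-4w, and the +MSC-4w mean was 48.0% of Intact (log2 fold change -1.06, SE 0.324, adjusted p = 0.0169). Gabra5 had 56.8, 47.5, 49.1 and 44.6 CPM in Intact, 29.6, 22.1, 18.6 and 25.5 in +MSC-4w and 24.1, 4.02, 6.26 and 6.42 in +PBS-4w, with a +MSC-4w mean of 48.4% (log2 fold change -1.05, SE 0.456, adjusted p = 0.0849). In +PBS-4w both were called lower, with log2 fold changes of -2.20 and -2.27. Their differences over +PBS-4w, tested directly, were not called (log2 fold change 1.14 and 1.23, adjusted p = 0.0528 and 0.122 in edgeR's test). Gabra2, the alpha2 subunit, was the uncalled member nearest to 0, with 49.2 to 56.0 CPM in Intact and 42.8 to 64.0 in +MSC-4w (log2 fold change -0.04).

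Slc12a5 encodes KCC2, the potassium-chloride cotransporter that keeps chloride low in mature neurons. It had 486, 398, 443 and 385 CPM in Intact, 293, 161, 140.4 and 197 in +MSC-4w and 123, 49.4, 72.2 and 69.7 in +PBS-4w, and the 3 ranges did not overlap. Its difference over +PBS-4w, tested directly, was not called (log2 fold change 1.33, adjusted p = 0.0365 in edgeR's test). The +MSC-4w mean was 46.2% of Intact (log2 fold change -1.11, SE 0.351, adjusted p = 0.0200, above the threshold). Slc12a5 was called lower in 6 of 17 alternatives, among them the fit without +MSC-4w replicate 1. Of the 4 cotransporters and kinases tested, edgeR called 0 in the main fit and 1 lower on the 8 libraries alone. At an unadjusted p under 0.05, 3 were lower, and DESeq2 called 1 on all libraries and 1 on the 8 libraries. Bdnf, a neurotrophin, had 3.27, 2.38, 2.13 and 3.15 CPM in Intact and 7.00, 2.99, 2.65 and 2.45 in +MSC-4w (log2 fold change 0.46, SE 0.387, adjusted p = 0.384), and the groups overlapped. These are rat reads, since reads that mapped to the human genome had been removed before counting.

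**Figure D4:**
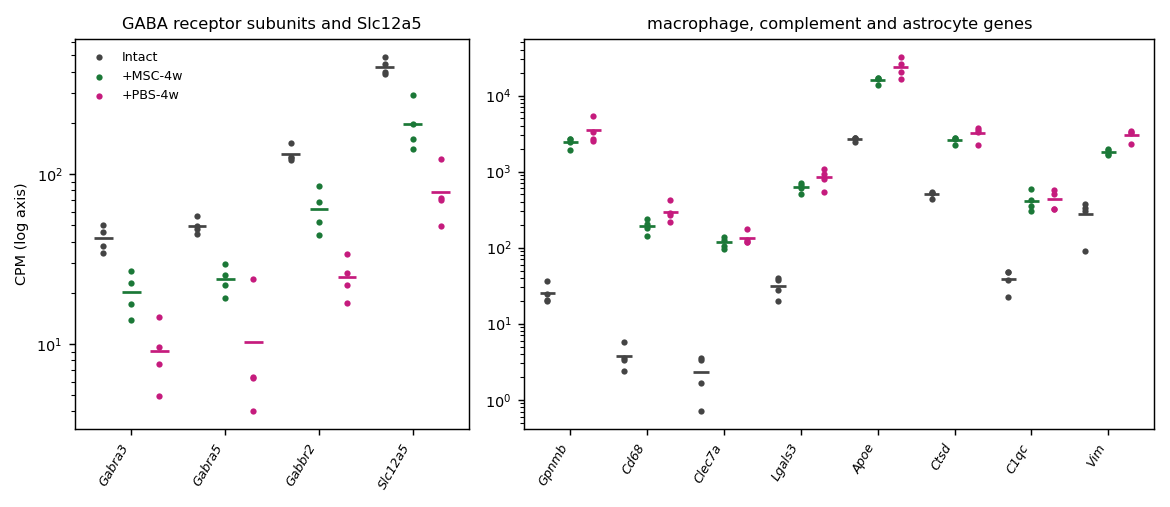
CPM per library (dots, log axis) and group means (bars) in Intact, +MSC-4w and +PBS-4w of Gabra3, Gabra5, Gabbr2 and Slc12a5 (left) and of 8 macrophage, complement and astrocyte genes (right). On the left the +MSC-4w means lay between the other groups, as for Slc12a5 with 428 in Intact, 198 in +MSC-4w and 78.5 in +PBS-4w, and on the right the +MSC-4w libraries all lay above the Intact libraries.

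Receptors and channels of excitable membranes showed the same kind of values, many members lower and few called. Of 6 genes of glycine receptors and their anchor gephyrin, Glra2, the alpha subunit prominent in the fetal cord, was lower, with 5.09 to 6.66 CPM in Intact and 1.81 to 3.58 in +MSC-4w (log2 fold change -1.20, adjusted p = 0.00642), and in 7 of the 8 fits that left out 1 library it was not called, the exception being that without +MSC-4w replicate 1. Of 16 ionotropic glutamate receptor genes, Grin2d, an NMDA receptor subunit, fell from 48.5, 52.5, 46.8 and 47.9 to 25.9, 22.01, 18.5 and 27.2 CPM (log2 fold change -1.07, adjusted p = 4.62e-05), and 10 were lower at an adjusted p under 0.05 without regard to size (median -0.77). Of 17 calcium channel genes, 2 were called lower, among them Cacna2d2, an auxiliary subunit, with 115, 111, 121 and 113 CPM in Intact and 72.4, 46.3, 41.4 and 60.5 in +MSC-4w (log2 fold change -1.06, adjusted p = 0.00155). Of 23 potassium and HCN channel genes, 4 were called lower, against 1.53% of all genes, with Kcnh7, an ERG channel, furthest (log2 fold change -1.53, adjusted p = 0.00323). Libraries of 22 of these 23 did not overlap, all on the lower side, against 20.4% of all genes, and the median was -0.88.

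Sodium channels were not called. Of 11 genes, edgeR called 0, 8 were lower and 1 higher at an unadjusted p under 0.05, and DESeq2 called 3 lower on all libraries and 2 on the 8 libraries (median -0.74). Of 23 genes of synaptic vesicle release, 4 were called lower (median -0.97, +PBS-4w -2.04). They included Rims1, a scaffold of the active zone, with 60.7, 58.2, 60.4 and 53.1 CPM in Intact and 35.3, 20.7, 20.3 and 26.6 in +MSC-4w (log2 fold change -1.18, SE 0.306, adjusted p = 0.00608), and the synapsins Syn2 and Syn3, which tether vesicles (log2 fold change -1.10 and -1.01). Of 17 alternatives, Rims1 kept its call in 11, Syn2 in 10 and Syn3 in 4. Vamp2, a vesicle SNARE, was nearest to Intact (log2 fold change -0.23, adjusted p = 0.265).

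These neuronal counts moved with single libraries. Without +MSC-4w replicate 1, in which vesicle release genes summed to 6058 CPM against 3626 to 4671 in the other 3 libraries, edgeR called 9 vesicle release genes, 8 potassium and HCN channels, 5 calcium channels, 2 sodium channels and 2 neuron markers lower. Without +MSC-4w replicate 3 it called 0 vesicle release genes, 0 potassium and HCN channels and 0 calcium channels, and without +MSC-4w replicate 2 it called 0, 1 and 0. Without Intact replicate 1 it called 0, 2 and 1, and without Intact replicate 3 it called 0, 2 and 1. Without Intact replicate 2 or +MSC-4w replicate 4 the vesicle release genes numbered 1, and without Intact replicate 4 they numbered 2. DESeq2 called 6 vesicle release genes and 7 potassium and HCN channels on all libraries, and 8 and 7 on the 8 libraries.

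Central myelin genes were lower, and enzymes of myelin lipids most so. Of 16 tested, 7 were called lower (median -0.97, +PBS-4w -0.98 with 8 called). Fa2h and Ugt8 encode the hydroxylase and the galactosyltransferase that make galactosylceramide, the main glycolipid of myelin. Ugt8 had 863, 848, 759.7 and 899 CPM in Intact and 156, 247, 341 and 315 in +MSC-4w. The groups did not overlap, and the mean was 31.4% of Intact (log2 fold change -1.67, SE 0.269, adjusted p = 7.31e-05). Fa2h fell to 30.2% (log2 fold change -1.73, adjusted p = 2.08e-06). Mbp, myelin basic protein, had 32980.5, 34568, 31206 and 35084 CPM in Intact and 16657, 9718, 14574 and 15838 in +MSC-4w, 42.4% of the Intact mean (log2 fold change -1.24, SE 0.262, adjusted p = 0.00121). Ermn, which shapes the oligodendrocyte cytoskeleton, and Mobp, a structural protein of central myelin, chosen after their values were seen, were each near the threshold of size with log2 fold changes of -1.08 and -1.05.

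Not all oligodendrocyte genes were low. Cldn11, the tight-junction protein of myelin, had 1193, 1249, 1099.8 and 1371 CPM in Intact and 1099, 1072, 1311 and 1277 in +MSC-4w, with overlapping libraries (log2 fold change -0.05, SE 0.161, adjusted p = 0.856). The myelin count was 3 without +MSC-4w replicate 2 and 5 to 7 without any other single library, and without the replicate 1 libraries it was 4. Of 12 genes of oligodendrocyte precursors and their differentiation, edgeR called 0, 3 were lower at an unadjusted p under 0.05, a share near the 19.5% of all genes, and DESeq2 called 0 in either fit (median -0.47). Myrf, the transcription factor of myelin genes, was nearest to Intact in that list (log2 fold change -0.23, adjusted p = 0.460). Of 8 genes of the node of Ranvier and paranode, edgeR called 0, 4 were lower and 1 higher at an unadjusted p under 0.05, and DESeq2 called 1 lower and 1 higher in either fit.

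Cholesterol synthesis was the list with the lowest median. Of its 18 enzymes, 17 were called lower against 1.53% of all genes, and all 18 had every +MSC-4w library below every Intact library (20.4% of all genes). The median log2 fold change was -1.71. The first committed steps make mevalonate. Hmgcs1, HMG-CoA synthase (ENSRNOG00000016552), had 987, 1065, 782 and 787 CPM in Intact and 96.2, 143, 156 and 168 in +MSC-4w, 15.6% of the Intact mean (log2 fold change -2.68, SE 0.258, adjusted p = 1.04e-07).

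The later steps were lower as well. Fdft1, squalene synthase, had 254, 255, 219 and 224 CPM in Intact and 46.7, 48.7, 59.5 and 66.6 in +MSC-4w (log2 fold change -2.10, SE 0.182, adjusted p = 2.68e-08). Sqle, squalene epoxidase, stood at 27.4% of Intact, Cyp51, lanosterol demethylase, at 22.6%, and Msmo1 and Hsd17b7, which remove the C4 methyl groups, at 26.03% and 25.2%. Sc5d, an enzyme near the end of the pathway, stood at 31.2%. Ebp, the sterol isomerase, was the uncalled member, at 60.6% with 22.3, 24.8, 23.5 and 21.6 CPM in Intact and 11.3, 15.1, 15.9 and 13.6 in +MSC-4w (log2 fold change -0.72, SE 0.129, adjusted p = 0.000236). It missed the threshold of size only. Across the alternatives run for the lists and with any library left out, 15 to 17 of the 18 were called lower.

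**Figure D5:**
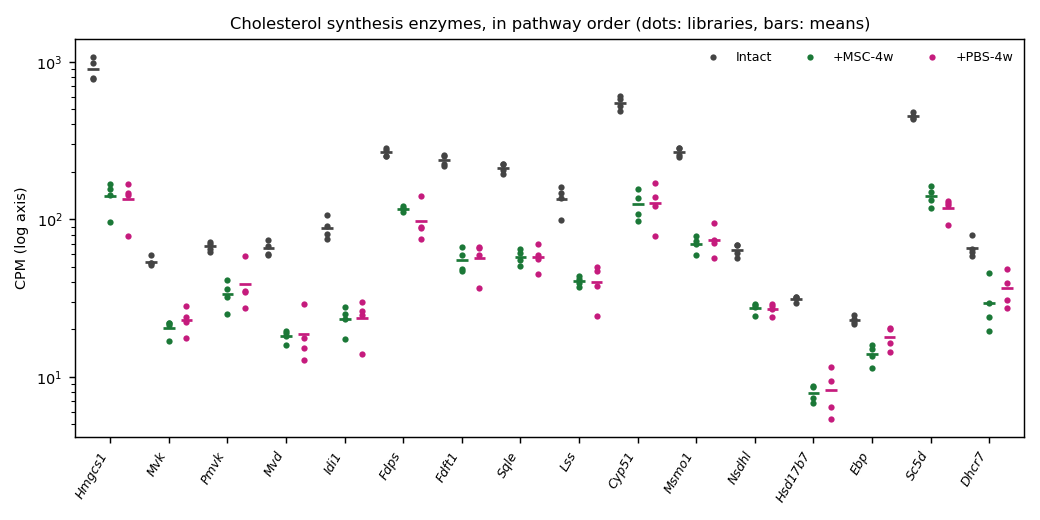
CPM per library (dots, log axis) and group means (bars) of 16 cholesterol synthesis enzymes in pathway order in Intact, +MSC-4w and +PBS-4w. For each enzyme the 4 +MSC-4w libraries lie below the 4 Intact libraries and among the +PBS-4w libraries or close to them, as for Hmgcs1 with means of 905 in Intact, 141 in +MSC-4w and 134 in +PBS-4w.

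Treated and vehicle libraries stood close together for these enzymes. In +PBS-4w 15 of the 18 were called lower than Intact (median -1.83). The median difference between +MSC-4w and +PBS-4w was -0.04 on the log2 scale, and at an unadjusted p under 0.05 edgeR had 1 of the 18 higher and 1 lower (Ebp). For Hmgcs1 this difference was 0.07 (adjusted p = 0.889), and for Fdft1 it was -0.05 (adjusted p = 0.900).

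Other lipid synthesis genes were lower too. Scd, which puts the double bond into stearate, had 195, 246, 200.2 and 209.5 CPM in Intact and 22.6, 22.5, 18.999 and 33.3 in +MSC-4w, 11.4% of the Intact mean and without overlap (log2 fold change -3.13, SE 0.270, adjusted p = 2.69e-08). Acat2, acetoacetyl-CoA thiolase, and Tm7sf2, a sterol reductase, were lower with log2 fold changes of -2.17 and -2.12. The following genes of the same pathways were chosen after their values were seen. Fasn, fatty acid synthase, stood at 47.4% of Intact (log2 fold change -1.08), Acss2, which makes acetyl-CoA from acetate, at 31.7% (log2 fold change -1.66) and Insig1, the sterol-regulated anchor of SREBP processing, at 35.0% (log2 fold change -1.52). All 3 were called, with adjusted p between 3.12e-07 and 1.56e-06 in edgeR's test. Srebf2, the transcription factor of cholesterol synthesis genes, was at 51.1% and narrowly missed the threshold of size (log2 fold change -0.97, adjusted p = 2.12e-07). Srebf1, its relative for fatty acid synthesis, rose 2.93-fold, from 116, 142, 136 and 129 CPM to 421, 340.4, 360.3 and 410.1 CPM, opposite in direction to Fasn and Scd.

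Cholesterol export and storage genes moved the other way. Of 11 tested, 8 were called higher against 7.25% of all genes (median 1.30, +PBS-4w 1.76). Apoe, the apolipoprotein that carries lipid between cells of the cord, had 2805, 2776, 2433 and 2751 CPM in Intact and 16446, 13858, 17035 and 16904 in +MSC-4w. The groups did not overlap, and the +MSC-4w mean was 5.97 times as high (log2 fold change 2.58, SE 0.219, adjusted p = 2.33e-08). Abca1, the transporter that loads cholesterol onto apolipoproteins, had 39.7, 56.3, 51.2 and 83.5 CPM and 484, 438, 583 and 374 CPM (log2 fold change 3.03, SE 0.287, adjusted p = 8.8e-08). Soat1, which esterifies cholesterol for storage, rose by 2.22 and Ch25h, cholesterol 25-hydroxylase, by 2.47. Npc1, which moves cholesterol out of lysosomes, was at the Intact level (log2 fold change 0.09, adjusted p = 0.727). Mylip, a ubiquitin ligase induced by oxysterols, and Nr1h3, the oxysterol receptor LXR alpha, both chosen after their values were seen, rose by 1.29 and 1.27 on the log2 scale.

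Phagocytic genes of macrophages and microglia were the list with the highest median. Of 15 tested, 13 were called higher (median 3.07). Cd68 had 2.40, 3.30, 3.56 and 5.82 CPM in Intact and 141, 241, 204 and 180.1 in +MSC-4w (50.3-fold, log2 fold change 5.65, SE 0.370, adjusted p = 1.59e-09). Lgals3, galectin-3, had 19.8, 37.6, 28.0 and 39.3 CPM and 672, 511, 704 and 601 CPM (19.9-fold, log2 fold change 4.32). Neither gene's groups overlapped. Lpl, lipoprotein lipase, and Cd163, the scavenger receptor for hemoglobin, named to complete the list, were the members not called (log2 fold change 0.87 and 1.30, adjusted p = 0.0933 and 0.0906).

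Genes that mark microglia in the healthy cord were also higher or near Intact. Of 11 homeostatic microglia genes, 5 were called higher (median 1.08, +PBS-4w 0.89). Csf1r, the receptor that microglia and macrophages need to survive, rose 3.33-fold, with 143 to 214 CPM in Intact and 514 to 629 in +MSC-4w. Tmem119, a marker of microglia that blood-derived macrophages largely lack, chosen after its values were seen, had 26.7, 30.1, 26.2 and 37.1 CPM in Intact and 66.6, 65.3, 59.7 and 61.8 in +MSC-4w (2.11-fold, log2 fold change 1.08, SE 0.220, adjusted p = 0.000856). P2ry12, the purinergic receptor of resting microglia, chosen likewise, had 20.8, 16.1, 24.9 and 27.6 CPM and 35.2, 45.0, 33.3 and 58.8 CPM and missed the threshold of size (log2 fold change 0.94, adjusted p = 0.00338). Sall1, a transcription factor of microglial identity, was nearest to Intact (log2 fold change -0.01).

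Most lysosomal genes were higher. Of 19 tested, 14 were called higher (median 1.80, +PBS-4w 1.96), and 13 to 14 were called under all alternatives run for the lists. Ctsd, cathepsin D, chosen after its values were seen, had 440.2, 525, 520.0 and 541 CPM in Intact and 2267, 2716, 2728 and 2738 in +MSC-4w, 5.16-fold higher with no overlap (log2 fold change 2.37, SE 0.208, adjusted p = 3.45e-08). Npc2, the sterol carrier of the lysosome lumen, had 194, 211, 191 and 187 CPM and 947, 1104, 1157 and 1066 CPM (log2 fold change 2.45, SE 0.192, adjusted p = 1.07e-08). Ctsc and Ctsz, further cathepsins, rose 6.04-fold and 5.65-fold, and Ctsk, the collagen-degrading cathepsin K, 5.49-fold. Lamp1, the main membrane protein of lysosomes, chosen likewise, had 757, 918, 756 and 802 CPM and 1215, 1266, 1320.0 and 1296 CPM without overlap and missed the threshold of size (log2 fold change 0.66, SE 0.109, adjusted p = 0.000109). Gla, which breaks down galactosylated lipids, chosen likewise, had a log2 fold change of -0.23.

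Lysosomal genes are known targets of TFEB and its relatives, which bind the E-box CACGTG, so this motif was looked for in RefSeq promoters (GRCr8, 250 bases before to 50 after the start, both strands; the motif reads the same on each). It was found in 2 of the 14 lysosomal promoters in the table (14.3%), in 8.76% of the 11923 promoters of genes tested and in 6.42% of all 33469 promoters. These 2 are shown 5′ to 3′ on the gene's strand as the 180 bases that hold all their copies, with the motif in capitals, Lamp1 at chr16:83075082-83075261 and Ctsd at chr1:206968822-206969001, both on the minus strand.
Lamp1: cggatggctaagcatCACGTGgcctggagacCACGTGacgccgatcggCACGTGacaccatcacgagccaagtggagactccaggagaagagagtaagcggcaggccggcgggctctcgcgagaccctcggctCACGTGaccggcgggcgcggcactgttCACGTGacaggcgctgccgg
Ctsd: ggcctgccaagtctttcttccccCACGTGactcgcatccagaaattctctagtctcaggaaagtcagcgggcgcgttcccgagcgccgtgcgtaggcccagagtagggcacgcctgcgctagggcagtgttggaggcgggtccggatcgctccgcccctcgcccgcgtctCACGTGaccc
Lamp1 held 5 copies and Ctsd 2. Their log2 fold changes were 0.66 and 2.37 in that order, and a relation between copies and change was not tested. The sterol regulatory element TCACNCCAC was searched on both strands in the same windows. It was in 0 of the 13 promoters given for the 18 cholesterol synthesis enzymes and in 1.12% of all promoters. With so low a share over all promoters, 0 of 13 is not a result about these enzymes. Other forms of the element were not searched. A match is a description of the sequence and was tested against no binding data.

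Complement genes were higher from C1q to C2 of the classical pathway. Of 15 tested, 13 were called higher (median 2.30, +PBS-4w 3.01). C1qc, a chain of the C1q recognition complex made by microglia and macrophages, had 22.2, 37.8, 47.3 and 48.4 CPM in Intact and 589, 417, 304 and 348 in +MSC-4w (10.6-fold, log2 fold change 3.41, SE 0.302, adjusted p = 3.58e-08). No library of one group reached the other. C1qa rose by 3.05 on the log2 scale. The 2 members not called, named to complete the list, were C3, the central component, with 135, 217, 133 and 249.8 CPM in Intact and 112, 624, 250.1 and 349.9 in +MSC-4w (log2 fold change 0.86, adjusted p = 0.199), and Cfp, properdin of the alternative pathway (log2 fold change 0.19, adjusted p = 0.496).

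Interferon-stimulated genes were higher 4 weeks after treatment. Of 17 tested, 15 were called higher (median 2.03, +PBS-4w 2.45), and 11 to 16 were called with any 1 library left out. Mx1, an antiviral GTPase, had 2.89, 4.99, 4.02 and 9.46 CPM in Intact and 23.6, 99.1, 65.4 and 39.6 in +MSC-4w (10.5-fold, log2 fold change 3.40, SE 0.498, adjusted p = 2.45e-05), with replicate 1 lowest of the +MSC-4w libraries. Ifitm3, a membrane protein that blocks viral entry, rose 5.16-fold with little spread (12.3, 20.7, 20.7 and 22.4 CPM in Intact, 95.4, 119, 88.2 and 91.0 in +MSC-4w). Rsad2, viperin, rose by 2.56. Stat2, a transcription factor of the pathway, did not meet the rule (log2 fold change 0.41, adjusted p = 0.0236).

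MHC class II genes, which present antigen to CD4 T cells, were higher in 3 of the 4 +MSC-4w libraries. Of 10 tested, 3 were called higher (median 2.18, +PBS-4w 2.11). Cd74, the invariant chain, had 24.9, 63.6, 82.3 and 81.6 CPM in Intact and 47.7, 798, 401 and 167 in +MSC-4w (log2 fold change 2.48, SE 0.662, adjusted p = 0.00718). RT1-Da, the rat class II DR alpha chain, had 2.89, 12.5, 22.4 and 17.3 CPM and 12.97, 203, 95.8 and 48.5 CPM (log2 fold change 2.71, SE 0.677, adjusted p = 0.00461). In both genes replicate 1 of +MSC-4w lay within the Intact range and replicate 2 was highest. Ciita, the master regulator of the class, rose by 2.22 (adjusted p = 0.00710). The count was 5 without +MSC-4w replicate 1, 0 without +MSC-4w replicate 2 or 3 or Intact replicate 1 or 2, and 2 without Intact replicate 3 or 4. With edgeR on the 8 libraries alone it was 0, and without the replicate 1 libraries it was 6.

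Class II promoters share a known array of boxes that ends in a Y box, which holds the letters ATTGG. These letters or their complement CCAAT were in 9 of the 9 class II promoters in the table and in 37.5% of all 33469, and as a motif of few letters it is common. The promoters of 3 class II genes on chromosome 20 are shown as the 100 bases that hold it, with either form in capitals, RT1-Da at chr20:4515315-4515414 on the plus strand and RT1-Db1 at chr20:4560178-4560277 and RT1-DMa at chr20:4712336-4712435 on the minus strand (RefSeq, GRCr8).
RT1-Da: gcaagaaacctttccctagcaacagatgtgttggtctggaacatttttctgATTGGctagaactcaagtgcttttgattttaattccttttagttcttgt
RT1-Db1: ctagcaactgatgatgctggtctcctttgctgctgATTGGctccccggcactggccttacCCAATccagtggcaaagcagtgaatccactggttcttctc
RT1-DMa: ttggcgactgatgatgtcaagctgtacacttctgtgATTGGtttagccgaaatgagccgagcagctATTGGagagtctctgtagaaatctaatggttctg
RT1-Da was called (log2 fold change 2.71), and RT1-Db1 and RT1-DMa, chosen for their promoters after their values were seen, had log2 fold changes of 1.61 and 1.91 (adjusted p = 0.0717 and 0.230).

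Lymphocyte genes were called higher in part. Of 15 tested, 6 were called higher (median 2.21), and edgeR on the 8 libraries alone called 3. Cd8a, a chain of the coreceptor of cytotoxic T cells, had 0.164 to 0.532 CPM in Intact and 10.8 to 15.8 in +MSC-4w (log2 fold change 5.20). Cd8b, the other chain, had 0.0463 to 0.183 CPM and 7.48 to 12.96 CPM (log2 fold change 6.70). Rat macrophages and microglia can carry CD8 as well. Cd3e, a chain of the T-cell receptor complex and so the more specific marker, had 0, 0, 0.185 and 0.190 CPM in Intact and 0.159, 3.19, 2.00 and 0.215 in +MSC-4w, so that +MSC-4w replicates 1 and 4 lay near the Intact level (log2 fold change 3.78, adjusted p = 0.00228), and it was not called without +MSC-4w replicate 2. Cd4, which rat macrophages also carry, chosen after its values were seen, rose 6.20-fold, with 20.4 to 29.4 CPM in Intact and 99.1 to 202 in +MSC-4w. The B-cell gene Ms4a1, chosen likewise, had 0 to 1.10 CPM in Intact and 0.0398 to 0.219 in +MSC-4w (log2 fold change -1.92, adjusted p = 0.0981). Of 27 chemokine and chemokine receptor genes, 18 were called higher (median 2.84, +PBS-4w 3.06). Ccl2, the main attractant of monocytes, chosen likewise, had 0.109, 0.596, 0.555 and 0.722 CPM in Intact and 1.31, 8.24, 4.15 and 3.66 in +MSC-4w (log2 fold change 3.09, adjusted p = 8.41e-05). A minimum of 10 counts in every library left 5 calls, and edgeR on the 8 libraries alone gave 11.

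Reactive astrocyte genes were higher in nearly the whole list. Of 13 tested, 12 were called higher (median 1.97, +PBS-4w 2.22), against 7.25% of all genes. In all 13 every +MSC-4w library lay above every Intact library, against 18.3% of all genes. Gfap, the intermediate filament that defines reactive astrocytes, chosen after its values were seen, had 3868, 5415, 3795 and 4057 CPM in Intact and 8944, 9311, 11666 and 11901 in +MSC-4w (2.44-fold, log2 fold change 1.29, SE 0.264, adjusted p = 0.000899). Cxcl10, a chemokine, Cp, ceruloplasmin, and Lcn2, lipocalin-2, rose by 3.41, 3.08 and 2.90 on the log2 scale. Vim, vimentin, which fibroblasts and macrophages also make, rose 6.598-fold from 89.4, 336, 372 and 304 CPM to 1913, 2012, 1700.1 and 1649 CPM. Lcn2 was spread widely in +MSC-4w (55.6, 29.7, 9.45 and 29.4 CPM) and was not called without Intact replicate 1, 2 or 3 or +MSC-4w replicate 1. Of 12 genes of astrocyte homeostasis, Kcnj10, the Kir4.1 channel that clears extracellular potassium, fell from 209, 222, 279 and 239.7 to 76.3, 82.1, 106 and 114 CPM, 39.8% of Intact (log2 fold change -1.33, SE 0.2596, adjusted p = 0.00057), while the list's median was -0.25.

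Few scar matrix genes were called. Of 41 collagen genes, 3 were higher and 1 lower (median 0.59), beside 7.25% and 1.53% of all genes. In +PBS-4w 16 were higher and 4 lower (median 1.17), and 22 and 4 without +PBS-4w replicate 1. Between +MSC-4w and +PBS-4w, tested directly, edgeR called 0 collagens higher and 0 lower. Col1a1, the main fibrillar collagen, chosen after its values were seen, had 16.2, 139.8, 209 and 418 CPM in Intact and 113, 679.8, 421 and 402 in +MSC-4w. Intact replicate 4 lay above 2 treated libraries, and the difference did not pass (log2 fold change 1.05, SE 0.609, adjusted p = 0.200). The higher ones were Col4a6 and Col18a1, collagens of basement membranes, and Col13a1, a membrane collagen (log2 fold change 1.87, 1.78 and 1.32, adjusted p = 0.00653, 0.00254 and 0.00878). Col2a1, the cartilage collagen, was called lower, with 8.68, 13.3, 8.97 and 61.6 CPM in Intact and 6.604, 5.40, 5.22 and 6.06 in +MSC-4w. The +MSC-4w mean was 25.1% of Intact (adjusted p = 0.00302), and without Intact replicate 4, the highest library, the log2 fold change was -0.83 and it was not called. The collagen count on the higher side was 0 without Intact replicate 1 or +MSC-4w replicate 2, 1 without Intact replicate 3, Intact replicate 4, +MSC-4w replicate 3 or +MSC-4w replicate 4, and 5 without +MSC-4w replicate 1. Without the replicate 1 libraries of all groups it was 7.

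Of 21 scar genes other than collagens, 4 were called higher (median 1.42), beside 14 in +PBS-4w (median 2.32). Between +MSC-4w and +PBS-4w, edgeR called 0 of them higher and 0 lower. S100a4, a marker of fibroblasts and some leukocytes, had 13.7, 16.3, 14.6 and 18.2 CPM in Intact and 72.2, 102, 102 and 126 in +MSC-4w (6.40-fold, log2 fold change 2.68, SE 0.252, adjusted p = 8.03e-08). Thbs2, a matricellular thrombospondin, Fmod, a small proteoglycan that binds collagen, and Fbln1, a basement membrane fibulin, rose by 2.26, 2.01 and 1.80. Fbn1, the microfibril protein, had 17.7, 37.8, 229 and 79.8 CPM in Intact and 61.1, 129, 73.4 and 85.9 in +MSC-4w and overlapped (log2 fold change -0.06). Without the replicate 1 libraries 8 of the 21 were called higher.

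Of 12 genes of chondroitin sulfate proteoglycans and their link proteins, 2 of the perineuronal net fell and the others were not called. Acan, aggrecan, the core proteoglycan of nets around neurons, had 31.8, 31.2, 32.4 and 31.2 CPM in Intact and 10.3, 11.5, 13.4 and 14.6 in +MSC-4w, 39.3% of the Intact mean with no overlap (log2 fold change -1.35, SE 0.254, adjusted p = 0.000396). Hapln1, the link protein that ties aggrecan to hyaluronan, fell to 27.6% (38.1, 25.2, 30.2 and 27.8 CPM in Intact, 10.2, 6.16, 5.94 and 11.2 in +MSC-4w, log2 fold change -1.86, SE 0.490, adjusted p = 0.00669). Acan was called under every alternative, whereas Hapln1 was not called when any 1 of the 8 libraries was left out (log2 fold change -2.03 to -1.71). Vcan, versican, stood at the Intact level (log2 fold change 0.04, SE 0.195, adjusted p = 0.906). Of 15 matrix proteases and inhibitors, 6 were higher. Besides Mmp12 they included Timp1, an inhibitor of metalloproteinases, which rose 6.597-fold from 4.58, 11.2, 17.5 and 15.4 CPM to 71.8, 103, 70.3 and 76.6 CPM, Mmp19, which rose 4.46-fold, and Mmp3, stromelysin, whose 1.23, 10.2, 1.04 and 1.25 CPM in +MSC-4w were highest in replicate 2 and which was not called without it.

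Genes associated with axon regeneration and neurotrophic signaling were higher in part, and which cells of the tissue held their RNA was not tested. Of 13 regeneration-associated genes, 6 were called higher (median 0.93, +PBS-4w 0.89), 6 with any 1 library left out. Atf3, a transcription factor switched on in injured neurons, had 1.91, 2.70, 1.39 and 2.09 CPM in Intact and 8.04, 40.2, 39.6 and 24.6 in +MSC-4w (13.9-fold, log2 fold change 3.79, SE 0.368, adjusted p = 1.19e-07), without overlap and lowest in replicate 1. Hspb1, a small heat shock protein, and Klf6, a transcription factor, rose by 1.97 and 1.38. Sprr1a, a cornified envelope protein of regenerating neurons, had 1 read in Intact and 93 in +MSC-4w (ratio 67.1, 95% interval 11.8 to 2678, counting error only). Gap43, a growth cone protein, chosen after its values were seen, had a log2 fold change of 0.44 (adjusted p = 0.175). Of 13 neurotrophic factor and receptor genes, Igf1, insulin-like growth factor 1, rose 5.96-fold (4.53, 7.70, 9.95 and 10.6 CPM in Intact, 28.2, 52.9, 56.4 and 58.9 in +MSC-4w), and Ngfr and Lif were also called (log2 fold change 1.76 and 1.45). The count was 1 without Intact replicate 1, 3 or 4 or +MSC-4w replicate 2.

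Of 10 immediate early genes, 7 were called higher and 1 lower (median 1.53). Fos and Junb, subunits of AP-1, rose 3.87-fold and 4.27-fold, with 9.28, 9.39, 6.24 and 10.9 CPM of Fos in Intact and 41.1, 23.2, 24.7 and 49.9 in +MSC-4w. Arc, the activity-induced gene of excitatory neurons, went the other way, from 7.31, 9.21, 7.59 and 8.59 CPM to 3.50, 3.76, 2.29 and 2.41 CPM (log2 fold change -1.45, SE 0.348, adjusted p = 0.00347). Both groups were separate in each of these genes. The higher count was 3 without Intact replicate 3 or +MSC-4w replicate 2 and 4 without Intact replicate 4, and Arc was not called without Intact replicate 2, +MSC-4w replicate 3 or +MSC-4w replicate 4.

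The remaining lists held fewer calls. Of 11 iron and heme genes, 4 were higher, with Hmox1, heme oxygenase 1, 4.75-fold up (15.1, 13.7, 14.8 and 19.4 CPM in Intact, 84.9, 75.5, 75.0 and 64.6 in +MSC-4w) and Tfrc, the transferrin receptor, lower at 47.0% of Intact (log2 fold change -1.09, adjusted p = 1.1e-05). Of 16 cell division genes, 4 were higher. Mcm3, a replication helicase subunit, rose 2.503-fold with no overlap. Aurkb, a mitotic kinase, had 2.84, 10.6, 1.30 and 7.11 CPM in Intact and 108, 7.43, 70.0 and 9.94 in +MSC-4w, high in replicates 1 and 3. The count was 1 without Intact replicate 3, 2 without Intact replicate 1 or +MSC-4w replicate 2, and 7 without Intact replicate 4. Of 8 genes of Schwann cell myelin, Egr2, the transcription factor of myelinating Schwann cells, was higher (log2 fold change 2.33, adjusted p = 0.00533), though not without Intact replicate 3 or 4 or +MSC-4w replicate 2 or 3, and the other 7 overlapped with Intact. Of 12 endothelial and barrier genes, edgeR called 0, 4 were higher at an unadjusted p under 0.05 and DESeq2 called 1 higher in either fit (median 0.06). Of 11 ependymal cilia genes, 4 red blood cell genes and 5 skeletal muscle genes, edgeR and DESeq2 called 0, and 1 ependymal gene was lower at an unadjusted p under 0.05. Of 7 neutrophil genes, 1 was called higher (median 1.71). Of 20 Hox genes, edgeR called 0, 8 were lower at an unadjusted p under 0.05, and DESeq2 called 2 lower on all libraries and 1 on the 8 libraries. Of 17 respiratory chain genes, edgeR called 0 and DESeq2 0 in either fit, and 7 were lower at an unadjusted p under 0.05 (median -0.38).

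Between +MSC-4w and +PBS-4w, tested directly, edgeR called 89 genes higher in +MSC-4w (0.495% of those tested) and 0 lower (0.00%). At an unadjusted p under 0.05, 2028 were lower, and DESeq2 called 12 lower on all libraries and 15 on the 2 groups. The count of 89 was 3 without +MSC-4w replicate 1 or +PBS-4w replicate 2, 25 to 43 without +MSC-4w replicate 2, +MSC-4w replicate 4, +PBS-4w replicate 3 or +PBS-4w replicate 4, and 484 without +PBS-4w replicate 1. With edgeR on these 2 groups alone, with or without a replicate block, it was 0, so every call above +PBS-4w named in this paragraph ended in those fits. Of the listed genes, 11 were among the 89, and all 11 belong to neuronal excitability and release. Those named here were chosen after their values were seen. Scn8a, the sodium channel Nav1.6 of nodes, averaged 266 CPM in Intact, 132 in +MSC-4w and 38.7 in +PBS-4w, a log2 fold change of 1.77 over +PBS-4w and -1.01 against Intact (adjusted p = 0.00498 and 0.0157). Glra1, the adult glycine receptor alpha subunit, averaged 143, 65.6 and 17.7 CPM (1.89 over +PBS-4w, -1.12 against Intact). The same order of the 3 means held for Syt2, Sv2c and Cacng2. Gabbr2, Kcnab2 and Cacna2d2 were called in both comparisons, above +PBS-4w and below Intact. Scn9a, Nav1.7, was the exception, with 18.6, 17.9, 18.4 and 21.2 CPM in Intact, 16.4, 43.9, 19.5 and 14.2 in +MSC-4w and 9.13, 7.44, 6.40 and 8.35 in +PBS-4w, so that +MSC-4w overlapped with Intact and replicate 2 raised its mean (log2 fold change against Intact 0.31, adjusted p = 0.457). Acan and Slc6a11 showed the same order with differences over +PBS-4w of 1.19 and 1.29 that did not pass (adjusted p = 0.0131 and 0.0114).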

How the data were processed

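Bulk poly(A) RNA-seq libraries of rat cord were trimmed with Trim Galore 0.5.0, reads that mapped to the human genome (GRCh38) were removed, and the rest were aligned to Rnor6 with HISAT2 2.1.0, handled with SAMtools 1.9 and counted with featureCounts 1.6.4, per the submitters' processing notes and the study's methods. The annotation release and strand setting are not given in the sources used here. The deposited values were raw counts per gene, made by the authors. Columns were matched to samples by name, and groups came from the labels.

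Genes were kept by filterByExpr in edgeR 4.0.16 (minimum count 10), scaled by TMM, and fitted over 26 libraries in 8 groups with the quasi-likelihood test in R 4.3.3. Calls needed an absolute log2 fold change above 1 and a Benjamini-Hochberg adjusted p under 0.01. The method, tested on simulated data for +MSC-4w against Intact, recovered 173 of 200 genes with a log2 change of 2 among 17990, with 1 false call. The simulation drew genes independently from the same mean profile for all libraries and changed only genes above a count minimum. It held none of the shifts between libraries described above, so it does not measure the rate of false calls in these data. Totals in the 8 libraries ran from 19496602 to 43468509, and counting intervals and floors cover counting error only.

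The members and the gene lists were chosen with earlier results of these data known. Genes were named by rule: the 10 higher and 10 lower with the smallest adjusted p, the 10 of each with the largest change at a mean of at least 1 CPM, up to 4 called members per list and direction, the uncalled member of each list nearest to 0, and 7 genes of the study. Other genes, said in the text to be chosen after their values were seen or to complete a list, are outside this rule. Some genes of the rule and lists are not reported here by name. No replicate block was used in the main fit. In their deviations, Intact and +MSC-4w libraries of the same number correlated at 0.317 for replicate 1 and at -0.0384 to 0.0612 otherwise. Replicate 1 had the lowest collagen mean log2 CPM of its group in Intact (2.91), +MSC-4w (3.825) and +PBS-4w (3.74). It also had the highest neuron marker mean (8.93, 8.21 and 7.90), so the replicate 1 libraries shared a direction there.

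Alternatives were DESeq2 1.42.0, edgeR on the 2 groups, RLE scaling, no filter, a stricter filter, a replicate block, leaving out the replicate 1 libraries or each library in turn, and looser p thresholds. The fits with no filter and with the block on the 2 groups were not used for counts of list members. Figures used Python 3.11.15 and matplotlib 3.10.9.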

Additional observations from a re-analysis of the deposited data

Results flagged for a closer look

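In each group of 4, the gap between the highest or lowest library and its nearest neighbor was set against the group's range, and a library with a ratio over Dixon's critical value is listed here. The check ran on 175 named genes in both groups, 350 groups in all, and marked 19, where chance marks about 1 in 20. Of the 45 lists 2 were marked.

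In +MSC-4w, replicate 1 was the library apart for 7 genes. It was high for Bdnf (7.00 CPM, others 2.45 to 2.99), Crh (7.84, others 2.33 to 2.97) and Kng1 (7.48, others 0.215 to 0.852). It was low for Col18a1 (33.8, others 110.0 to 124), Mmp19 (20.3, others 32.8 to 35.1), Mvk (17.0, others 21.2 or more) and Sprr1a (0.159, others 0.860 to 0.940). Replicate 2 was high for Mmp3 (10.2, others 1.04 to 1.25), and replicate 4 for Cd8a (15.8, others 10.8 to 10.9).

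In Intact, replicate 1 was low for Col13a1 (0.982 CPM, others 5.27 to 5.41) and Klf6 (8.08, others 14.1 to 14.8) and in the mean log2 CPM of the collagens (2.91, others 3.99 to 4.21), and it alone had a read of Sprr1a (0.0546 CPM). Replicate 4 was high for Col2a1 (61.6, others 8.68 to 13.3), Mpo, a neutrophil enzyme (25.9, others 0.327 to 3.12), Tnnt3, a fast muscle troponin (31.7, others 2.24 to 2.91), and Ccnb1, cyclin B1 (3.84, others 2.73 to 2.77), and it alone had reads of Kng1 (0.114). Replicate 2 was high for Esam, an endothelial adhesion protein (25.7, others 19.8 to 20.6). Replicate 3 was low for Apoe (2433, others 2751 to 2805) and in the mean log2 CPM of the central myelin genes (9.51, others 9.61 to 9.62).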

How the results depend on the processing

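The count of genes higher than Intact (1305) stayed within 1.5 times under every alternative that kept the call thresholds, and was 3176 at an adjusted p under 0.05 and 4027 at an unadjusted p under 0.05. Without 1 library it was 1055 to 1443. The count of lower genes (275) was 460 with DESeq2 on all libraries, 514 with DESeq2 on the 2 groups, 427 with edgeR on the 2 groups, 428 without the replicate 1 libraries, 2438 at an adjusted p under 0.05 and 3503 at an unadjusted p under 0.05. Without 1 library it was 127 to 424. The count of genes higher than +PBS-4w (89) was 293 with DESeq2 on all libraries, 233 on the 2 groups, 0 with edgeR on the 2 groups, 552 at an adjusted p under 0.05 and 2020 at an unadjusted p under 0.05, and 3 to 484 without 1 library. The count of genes lower than +PBS-4w (0) was 12 and 15 with DESeq2, 6 without the replicate 1 libraries, 167 at an adjusted p under 0.05 and 2028 at an unadjusted p under 0.05, and 0 to 46 without 1 library. The cause of these moves was not tested. The difference between the group means of the log2 totals was 0.141 to 0.440 without 1 library.

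Libraries of the 2 groups with the same replicate number correlated at 0.317, 0.0612, -0.0384 and 0.0169 in their deviations from the group means. Intact replicate 4 and +MSC-4w replicate 2, of unlike number, correlated at 0.33. The numbers were not taken to pair the libraries, although the replicate 1 libraries shared a direction in the collagens and neuron markers. With the replicate block on all libraries 360 genes were lower than Intact and 86 higher than +PBS-4w, and with the block on the 2 groups 449 and 0.

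Over the 175 named genes, no alternative reversed a called direction. In 236 cases of a gene under an alternative a call was lost, in 20 one was gained, in 2646 the side of the threshold held, and in 12 cases a gene that was not called stayed so with a log2 fold change that moved by more than its standard error. Leaving out +PBS-4w replicate 1 from the values of +PBS-4w against Intact was chosen after seeing the data. The precision is limited by 4 libraries a group, and genes under 1 CPM rest on few reads.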

Other observations

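Ribosomal protein genes, a group looked at after the values were seen, stood higher in +MSC-4w. Of 84 tested, 12 were called higher and 0 lower (edgeR), and in 69 all 4 +MSC-4w libraries lay above all 4 Intact libraries, against 18.3% of all genes. Their median log2 fold change was 0.80, with 1.08 in +PBS-4w, and their summed level ran from 9538 to 9977 CPM in Intact and from 16580 to 19004 CPM in +MSC-4w, so that the groups lay apart.

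Hoxd10, a homeobox gene of the caudal cord, was also looked at after its values were seen. It had 2.78, 0.0458, 0.0925 and 0.304 CPM in Intact and 0.0796, 5.92, 6.15 and 4.86 in +MSC-4w (log2 fold change 2.46, adjusted p = 0.330 in edgeR's test). Replicate 1 stood apart from the other 3 libraries in both groups and in opposite directions. The cord level of each segment is not given per library, and its part in the values was not tested.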
